A study of Mus musculus with 6 samples.

Results

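The genes studied here carry the names of proteins of the cytosolic ribosome of the mouse. A name alone does not show that each protein, above all that of a paralog, is part of the ribosome. They were chosen by name and biotype: protein-coding genes called Rpsa, or carrying the prefix Rpl, Rplp or Rps, a number and at most a short suffix such as a, x or l. This gave 83 of the 54532 genes in the table, 51 of the large subunit (Rpl and Rplp) and 32 of the small subunit (Rps and Rpsa), and all 83 were abundant enough to be tested. The rule itself used no measured value, though it was chosen with earlier results of these data known. Poly(A)-selected RNA had been sequenced from 2 groups of 3 libraries of haploid embryonic stem cells, strain 129SV, one group wild type (WT) and the other p53-deficient. The genotype field gives the second group as lacking p53, the series design calls it a knockout, and the sample titles carry the tag P53ki. No treatment is given for either group, and no label says that the 3 libraries of a group came from separate cultures, lines or clones, so p-values speak only of the scatter among 6 libraries, part or all of which may be technical. Line, clone and genotype cannot be told apart in this design.

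The small subunit of the ribosome reads the mRNA and the large subunit joins the amino acids, and each ribosomal protein is needed in about the same number of molecules. Their mRNAs are among the most abundant in growing cells and begin with a run of pyrimidines through which mTOR and LARP1 control their translation. When ribosome assembly fails, unassembled ribosomal proteins, RPL5 and RPL11 above all, bind MDM2, the ubiquitin ligase that marks p53 for destruction. Ribosomal protein mRNAs have also been copied back into the genome many times. These processed pseudogenes lack introns and can be so like the parent gene that a short sequencing read fits both.

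Reads in listed genes numbered between 11536412 and 21218976 per library. Trp53, which encodes p53, was listed at 64.5, 69.8 and 69.6 FPKM (read fragments per kilobase of the gene, adjusted for library size) in the WT libraries and at 9.71, 9.71 and 9.98 FPKM in the p53-deficient libraries, in the direction of the labels. The stem cell markers were present in all libraries, with 3 of 8 higher and 4 lower (median log2 fold change -0.08). Their summed level was 3372 to 3435 FPKM in WT and 2388 to 2458 FPKM in p53-deficient libraries, and the most abundant, Dppa5a, went from 2007 ± 30.0 to 1075 ± 35.1 FPKM (SD, n = 3 per group). Of 15 fibroblast markers, 14 were tested and 14 were lower, where 35.3% of all tested genes were higher and 31.3% lower. None of the 15 was at 0 in all libraries, and their summed level was 1529 to 1542 FPKM in WT against 386 to 406 FPKM. The list held Col1a1, Col1a2, Col3a1, Lox, Thbs1, Dcn, Lum, Postn, Fn1, Pdgfrb, Thy1, Lgals1, Acta2, Tagln and Vim. The 4 Y-linked genes summed to 3.51 to 3.94 FPKM in WT and 0.330 to 0.395 FPKM in p53-deficient libraries. These markers moved with the genotype, and their part in the ribosomal protein results was not tested. In such bulk RNA, fewer cells of a type and less RNA per cell cannot be told apart.

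The likeness between gene and copy bears on every value below, so coding sequences of 4 genes are shown beside a copy that changed in the opposite direction. The stretches come from the GENCODE transcripts on mm10, 5′ to 3′, and capitals mark the positions at which gene and copy differ. Rps2 (chr17:24718116-24721929, plus strand) encodes a protein at the mRNA entry channel of the small subunit, and Rps2-ps13 (chrX:52898588-52899469, plus strand) is a processed pseudogene. The first 100 coding bases differ at 2 positions, and the whole alignment of 895 positions holds 7 substitutions, 13 gap positions and a run of 302 identical bases.
Rps2: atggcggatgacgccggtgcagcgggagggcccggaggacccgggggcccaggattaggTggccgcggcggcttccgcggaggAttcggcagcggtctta
Rps2-ps13: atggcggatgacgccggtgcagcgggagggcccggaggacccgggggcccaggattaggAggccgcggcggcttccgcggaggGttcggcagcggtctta
Rps3a1 (chr3:86137940-86142702, minus strand) encodes a small subunit protein, and Rps3a2 (chr14:88123017-88123808, minus strand) is one of its processed pseudogenes. Over 792 aligned positions the sequences differ by 4 substitutions, and coding bases 569 to 668 hold 2 of them.
Rps3a1: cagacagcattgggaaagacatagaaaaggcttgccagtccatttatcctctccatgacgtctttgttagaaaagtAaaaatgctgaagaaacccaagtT
Rps3a2: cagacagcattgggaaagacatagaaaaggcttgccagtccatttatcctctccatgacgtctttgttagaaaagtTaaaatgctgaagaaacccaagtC
Rpl26 (chr11:68901583-68906989, plus strand) encodes a large subunit protein that has been described to bind Trp53 mRNA as well as MDM2, and Gm15772 (chr5:3236431-3236868, plus strand) is its processed pseudogene. Over 435 positions the sequences differ by 2 substitutions, and coding bases 78 to 177 hold 1 of them.
Rpl26: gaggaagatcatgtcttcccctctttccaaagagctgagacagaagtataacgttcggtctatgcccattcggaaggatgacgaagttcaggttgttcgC
Gm15772: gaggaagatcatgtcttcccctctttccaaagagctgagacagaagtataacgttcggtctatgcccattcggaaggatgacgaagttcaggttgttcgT
Rpl30 (chr15:34440505-34443640, minus strand) encodes a large subunit protein at the subunit interface, and Gm12191 (chr11:49678710-49679057, minus strand) is its processed pseudogene. Over 345 positions the sequences differ by 1 substitution, which falls in the first 100 coding bases.
Rpl30: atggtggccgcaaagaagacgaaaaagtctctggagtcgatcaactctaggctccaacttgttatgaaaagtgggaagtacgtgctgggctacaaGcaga
Gm12191: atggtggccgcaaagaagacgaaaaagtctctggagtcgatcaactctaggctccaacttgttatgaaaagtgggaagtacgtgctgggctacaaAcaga
In each pair, identical runs of 176 to 317 bases lie in both sequences, and the part that such shared runs had in the values was not tested. The sources used here do not say how reads with several matches were counted.

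A search with the coding sequences of the 83 genes found 558 listed genes that were near-identical copies (at least 95% identity over at least 50% of the coding sequence), for 77 of the genes. Of these copies, 233 were abundant enough to be tested, 89 of them with a name of the form parent-ps and 144 with another name. A gene had 5 copies at the median, and Rpl21 had the most with 54. Since a read may fit both a gene and its copies, each gene was measured in 2 ways: on its own, and with the reads of all its copies added to its own. The second value is called the summed value below. Family sums are given in RPM, the usual unit of reads scaled by the library total, without division by gene length. The library total here is the divisor that the FPKM values imply, which is not the number of reads in listed genes. The summed value counts RNA of the copies as RNA of the gene, so it is no purer a measure of the gene than the first.

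On their own, 9 of the 83 ribosomal protein genes were higher in p53-deficient cells and 38 were lower at an adjusted p under 0.05, and 36 did not pass (limma, Benjamini-Hochberg over 15144 genes). Over all tested genes 35.3% were called higher and 31.3% lower. The median log2 fold change of the 83 genes was -0.09 on the log2(FPKM + 1) scale, where that of all tested genes was 0.03. Most changes were small: 56 of the 83 genes lay within 0.25 of 0 on the log2 scale. On the same scale, 4 genes were called as rising at least 2-fold (Rps2, Rps18, Rpl26 and Rpl21) and 2 as falling (Rpl30 and Rps3a1). The shares over all tested genes were 3.42% and 6.3%. All 2-fold counts of members use this scale. It understates low genes: Rpl3l was at -0.66 on it, while its mean went from 1.23 to 0.413 FPKM. The groups of libraries did not overlap in 51 of the 83 genes, and in 71.4% of all tested genes. Without p53-deficient replicate 3, 15 genes were called higher. With each gene summed with its copies, 4 genes were called higher, 40 lower and 39 did not pass, where 35.6% and 31.6% of 14911 tested genes were called. In that fit 68 of the 83 genes lay within 0.25 of 0 on the log2 scale, and Rps18 and Rpl21 had changed at least 2-fold, both higher, beside 3.33% of tested genes. Quantile normalization turned the summed count into 11 higher and 39 lower, and leaving out p53-deficient replicate 3 also gave 11 higher.

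**Figure D1:**
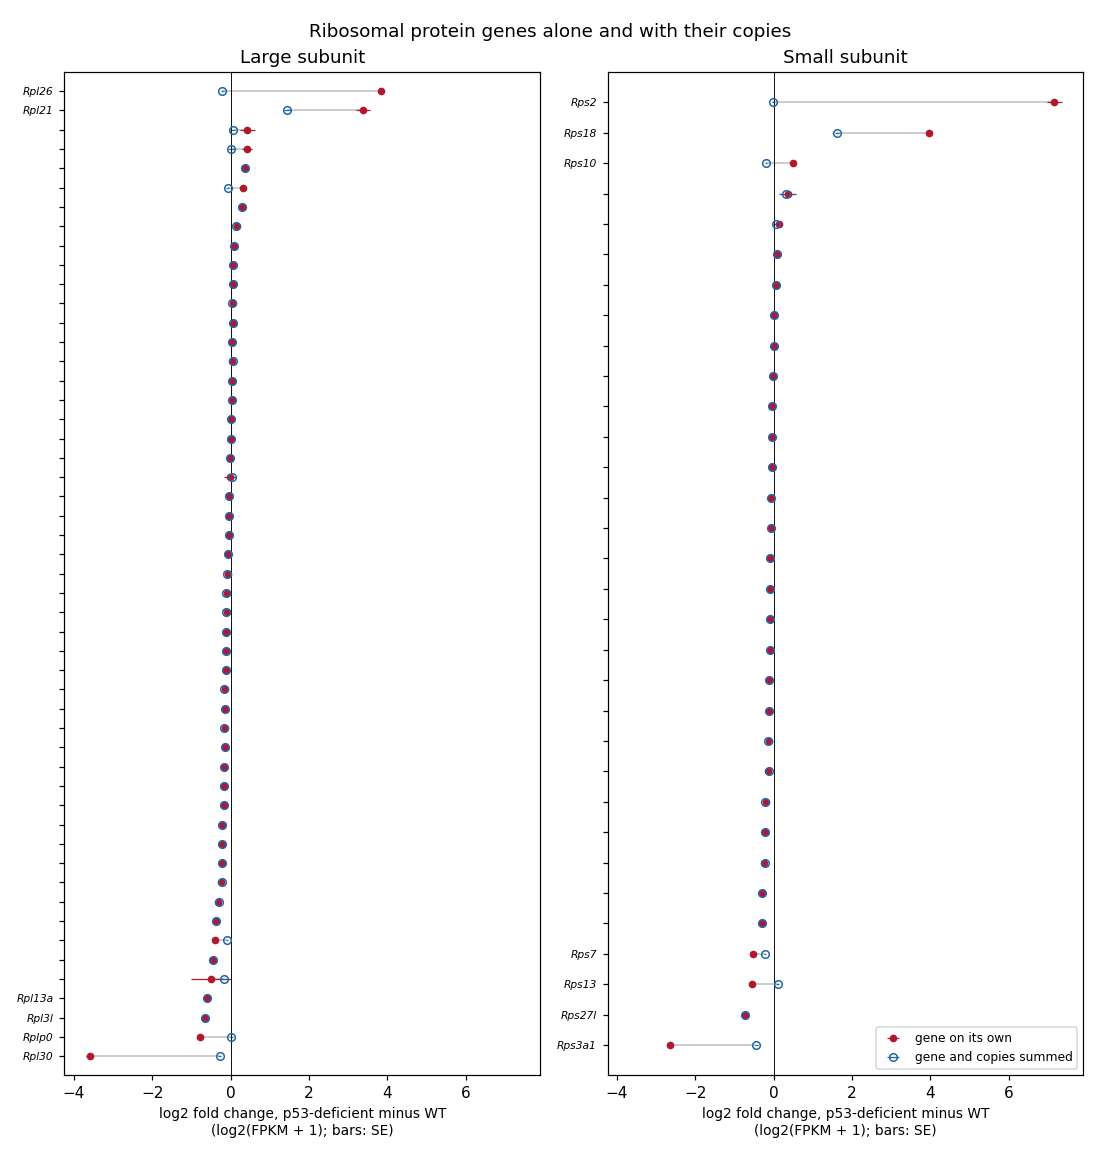
Log2 fold change (p53-deficient minus WT, log2(FPKM + 1) scale) of each of the 83 genes on its own (filled red) and summed with its near-identical copies (open blue), with bars for the SE; large subunit genes on the left, small subunit genes on the right, and names for genes at least 0.5 above or below 0 on their own. The far points at 7.17 (Rps2), 3.83 (Rpl26), -2.64 (Rps3a1) and -3.60 (Rpl30) moved to within 0.5 of 0 when copies were summed, while Rps18 and Rpl21 stayed above 1.4.

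Large and small subunit genes gave similar counts. Of 51 large subunit genes 6 were higher and 23 lower, with a median log2 fold change of -0.08, and of 32 small subunit genes 3 were higher and 15 lower, with a median of -0.09. Summed with their copies, 3 large subunit genes were higher and 24 lower (median -0.08), and 1 small subunit gene was higher and 16 lower (median -0.09). Under the median ratio scaling both medians were lower, at -0.18 for the large and -0.19 for the small subunit on their own. That scaling also moved the median of all tested genes, from 0.03 to -0.05. Under quantile normalization the medians were -0.074 and -0.073 on their own, and -0.050 and -0.063 summed. The direction of neither subunit turned under these scalings. As a share of the library total, reads of the large subunit genes alone took 4.16%, 4.12% and 4.05% in WT and 3.97%, 3.78% and 3.70% in p53-deficient libraries. Those of the small subunit took 2.98%, 2.94% and 2.85% in WT and 2.96%, 2.88% and 2.78% in p53-deficient libraries. The groups were apart for the large subunit and overlapped for the small subunit. The large subunit thus stood at 0.929 of its WT mean and the small subunit at 0.982. The ratio of large to small subunit reads was 1.41 ± 0.0132 in WT and 1.33 ± 0.0155 in p53-deficient libraries (SD, n = 3 per group), without overlap. With the copies summed, the ratio was 1.42 ± 0.00975 in WT and 1.42 ± 0.00882 in p53-deficient libraries, the groups overlapped, and the subunits stood at 0.952 and 0.949 of their WT means. All 83 genes and their copies took 8.09% ± 0.141 of the library total in WT and 7.69% ± 0.257 in p53-deficient libraries (SD, n = 3 per group). The lowest WT library (replicate 3, 7.93%) lay below the highest p53-deficient library (replicate 1, 7.95%). The divisor was above the listed reads in the first (20589340 against 20331905) and below them in the second (21038408 against 21218976). This narrow overlap therefore depends on the divisor used.

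**Figure D2:**
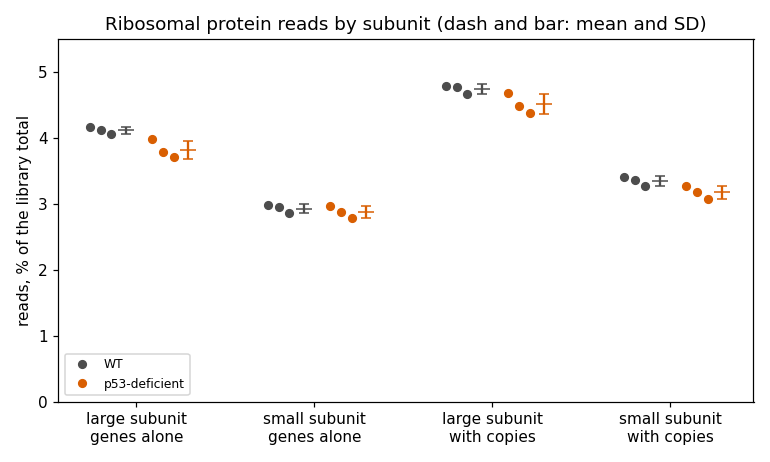
Reads of large and small subunit genes as a percentage of the library total, each point 1 library, dash and bar the mean and SD of 3 libraries. For genes alone the large subunit fell from 4.11% to 3.82% and the small from 2.93% to 2.87%; with copies the means went from 4.74% to 4.51% and from 3.34% to 3.17%.

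Levels were high and close between libraries for most members. The highest level per length was that of Rplp1, which encodes an acidic protein of the ribosomal stalk, with 4604, 4608 and 4430.2 FPKM in WT and 4204, 4014 and 3811 FPKM in p53-deficient libraries. Every WT library of Rplp1 was above every p53-deficient library, and the log2 fold change was -0.18 (SE 0.0445, limma adjusted p = 0.01). It became -0.05 under quantile normalization and did not pass there (adjusted p = 0.333). In WT, 71 of the 83 genes had a mean of at least 100 FPKM and 12 of at least 1000 FPKM. Only 7 were under 10 FPKM: Rpl21, Rpl24, Rpl29, Rpl34, Rpl3l, Rps10 and Rps2. All of these but Rpl3l held under 50% of the reads of their own family in WT, the copies holding the rest. Within a group, the highest library stood at 1.05 times the lowest in WT and 1.09 times in p53-deficient libraries at the median over the 83 genes.

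The naming of pseudogenes allowed a first check of genes and copies that move apart. Of 296 listed pseudogenes named after one of the 83 genes, 95 were tested, and 13 were higher, 14 lower and 68 did not pass. Among all tested genes, by comparison, 35.3% were higher and 31.3% lower. For 6 genes, all of the small subunit (Rps2, Rps18, Rps13, Rps15a, Rps10 and Rps19), a pseudogene of the same name was called in the opposite direction to the gene. By sequence, 25 tested copies of 15 genes were called opposite to the parent gene, among them 5 of those 6 genes. How often unrelated genes are called in opposite directions was not measured. Rps19 was not, because Rps19-ps3 did not meet the limits set for a copy. All 6 genes that changed at least 2-fold were among those 15. Genes with a name of the form Gm and a number were singled out below after their values were seen.

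Rps2 had the largest rise of all 83 genes. It was listed at 5.66, 9.54 and 5.28 FPKM in WT and at 1136, 1091 and 1049.5 FPKM in p53-deficient libraries. The p53-deficient libraries were all far above the WT libraries, a log2 fold change of 7.17 (SE 0.188, limma adjusted p = 4.54e-07). Rps2-ps13, on the X chromosome, went the other way, from 2611, 2577 and 2595 FPKM in WT to 225, 197 and 201 FPKM, a log2 fold change of -3.64 (SE 0.0504, limma adjusted p = 3.57e-08). Gene and copies together came to 2349, 2329.7 and 2336 RPM in WT and 2394, 2298 and 2223 RPM in p53-deficient libraries. These sums overlapped between the groups, with a log2 fold change of -0.02 (SE 0.0318, limma adjusted p = 0.585). The share of the family's reads that was listed in Rps2 itself went from 0.535% to 86.7%.

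Rps18, whose protein sits in the head of the small subunit, was listed at 30.0, 30.3 and 28.0 FPKM in WT and at 488, 474 and 452 FPKM in p53-deficient libraries. The groups were far apart, with a log2 fold change of 3.96 (SE 0.041, limma adjusted p = 1.52e-08). Its copy Gm11361, annotated as protein-coding, fell from 485, 475 and 445 FPKM to 18.6, 22.1 and 15.8 FPKM. Rps18-ps3 fell from 61.1, 58.6 and 64.7 FPKM to 4.17, 4.74 and 4.35 FPKM. Unlike Rps2, the family as a whole did not come out level. Family sums were 397, 391 and 369.6 RPM in WT and 1228, 1196 and 1138 RPM in p53-deficient libraries, a log2 fold change of 1.61 that passed (SE 0.0393, limma adjusted p = 2.88e-07). Copies under 95% identity were not added, and their part in this difference was not tested.

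Rps13, a protein of the small subunit near the bridge to the large one, fell while its pseudogene rose. The gene was listed at 239, 237 and 234 FPKM in WT and 172, 157 and 155 FPKM in p53-deficient libraries, a log2 fold change of -0.55 (SE 0.0419, limma adjusted p = 4.14e-05). Rps13-ps1 was listed at 21.7, 21.9 and 17.0 FPKM in WT and 513, 495 and 469 FPKM in p53-deficient libraries. Neither gene nor pseudogene had groups that overlapped. The sum of the family was slightly above WT in each p53-deficient library and did not pass (log2 fold change 0.10, SE 0.0384, limma adjusted p = 0.0511).

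Rps10 was hardly listed at all: 5.51, 4.76 and 5.82 FPKM in WT and 7.88, 7.90 and 8.19 FPKM in p53-deficient libraries. Its pseudogene Rps10-ps2, at 468, 464 and 462 FPKM in WT and 406, 374 and 375 FPKM in p53-deficient libraries, held nearly all reads of the pair. The gene rose by a log2 fold change of 0.50 (limma adjusted p = 0.000569) and the pseudogene fell with -0.27 (limma adjusted p = 0.000602). The sum followed the pseudogene and was lower, with -0.20 (limma adjusted p = 0.00102). For Rps15a and Rps19 the gene held nearly all reads of its family. Rps15a fell from 112 ± 2.81 to 93.8 ± 5.67 FPKM (SD, n = 3 per group), and 3 pseudogenes at low levels rose, the most abundant being Rps15a-ps7 from 5.48 ± 0.546 to 15.0 ± 1.57 FPKM. Rps19, the gene most often mutated in Diamond-Blackfan anaemia, fell from 206 ± 6.26 to 179.8 ± 7.38 FPKM, and Rps19-ps3 rose from 2.30 ± 0.247 to 4.195 ± 1.19 FPKM. Rps15a stayed lower after summing, with a log2 fold change of -0.22 (limma adjusted p = 0.00465). The sum for Rps19, which does not contain Rps19-ps3, was also lower, with -0.22 (limma adjusted p = 0.00193), and -0.21 when all pseudogenes of its name were added instead.

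Among large subunit genes, Rpl26 and Rpl30 moved opposite to copies that carry no parent name. Rpl26 was listed at 31.2, 30.8 and 28.4 FPKM in WT and 456, 433 and 432 FPKM in p53-deficient libraries, a log2 fold change of 3.83 (SE 0.0422, limma adjusted p = 1.63e-08). Gm15772 went from 1690.3, 1699 and 1646 FPKM to 83.9, 82.98 and 72.7 FPKM. Gene and pseudogene thus changed places as the main holder of reads, and the share in Rpl26 went from 5.58% to 94.5%. The family as a whole was lower in every p53-deficient library, at 697, 664 and 658 RPM against 787, 790.3 and 763 in WT (log2 fold change -0.21, SE 0.0301, limma adjusted p = 0.000756). Taken alone, Rpl26 was therefore called higher, and with its copies lower.

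Rpl30 had the largest fall of all 83 genes. It was listed at 174, 179 and 222 FPKM in WT and 15.1, 14.2 and 15.2 FPKM in p53-deficient libraries, a log2 fold change of -3.60 (SE 0.0922, limma adjusted p = 4.08e-07). Gm12191 rose from 273, 265 and 78.7 FPKM to 1521, 1461 and 1373 FPKM. WT replicate 3 stood apart in both, highest in the gene and lowest in the copy, and it was also lowest in Rpl30-ps10 (100.1, 91.5 and 5.74 FPKM in WT). Summed, the family stood at 659, 670 and 702 RPM in WT and 581, 558 and 529 in p53-deficient libraries, without overlap, and the log2 fold change was -0.28 (SE 0.041, limma adjusted p = 0.000854).

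Rps3a1 was among the most abundant genes in WT, with 1575, 1610.3 and 1566 FPKM, and was listed at 256, 254 and 249 FPKM in p53-deficient libraries. The log2 fold change was -2.64 (SE 0.024, limma adjusted p = 1.03e-08). Its processed pseudogenes Rps3a2 and Rps3a3 rose from 9.43, 8.52 and 9.08 FPKM to 679, 611 and 615 FPKM, and from 7.14, 6.25 and 7.09 FPKM to 508, 502 and 480.3 FPKM. The share of reads in Rps3a1 fell from 99.0% to 21.6%. After summing the family was still lower, at 1195, 1134 and 1115 RPM against 1556, 1588 and 1546 in WT, with a log2 fold change of -0.45 (SE 0.0325, limma adjusted p = 3.12e-05).

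Rplp0 encodes the base of the ribosomal stalk and is a common reference gene in quantitative PCR. It was listed at 1431, 1466 and 1459.5 FPKM in WT and 878, 814 and 833 FPKM in p53-deficient libraries (log2 fold change -0.79, SE 0.0341, limma adjusted p = 3.44e-06). Gm8730, a processed pseudogene, rose from 295, 306 and 280.4 FPKM to 1267, 1187 and 1186 FPKM, and Gm9625 from 1.27, 0.797 and 0.915 FPKM to 169, 169 and 166 FPKM. The family summed to 2656, 2726 and 2690 RPM in WT and 2830.4, 2648 and 2676 in p53-deficient libraries. These sums overlapped, with a log2 fold change of 0.01 (SE 0.0325, limma adjusted p = 0.722). The other stalk gene, Rplp2, was listed at 403 ± 10.6 FPKM in WT against 389 ± 19.8 FPKM in p53-deficient libraries and did not pass (log2 fold change -0.05, limma adjusted p = 0.313), though it passed as lower under both other scalings.

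Rpl21 has more copies than any other member. It was listed at 4.53, 4.68 and 4.87 FPKM in WT and 66.4, 70.7 and 42.8 FPKM in p53-deficient libraries, a log2 fold change of 3.39 (SE 0.179, limma adjusted p = 8.08e-06). The most abundant copy, Rpl21-ps15 on the X chromosome, moved in the same direction, from 225 ± 5.11 to 326 ± 16.4 FPKM (SD, n = 3 per group). Gm10240 went the opposite way, from 11.9 ± 0.982 to 5.06 ± 0.898 FPKM. The family sums were 148, 146 and 143 RPM in WT and 438, 431 and 345 RPM in p53-deficient libraries, and the summed log2 fold change of 1.44 passed (SE 0.0886, limma adjusted p = 1.42e-05). On the log2(FPKM + 1) scale, Rpl21 and Rps18 were the 2 members whose families differed at least 2-fold. The low Rpl3l, for which no copy was found, went from a mean of 2.02 to 0.679 RPM, a log2 fold change of -0.66 on that scale.

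**Figure D3:**
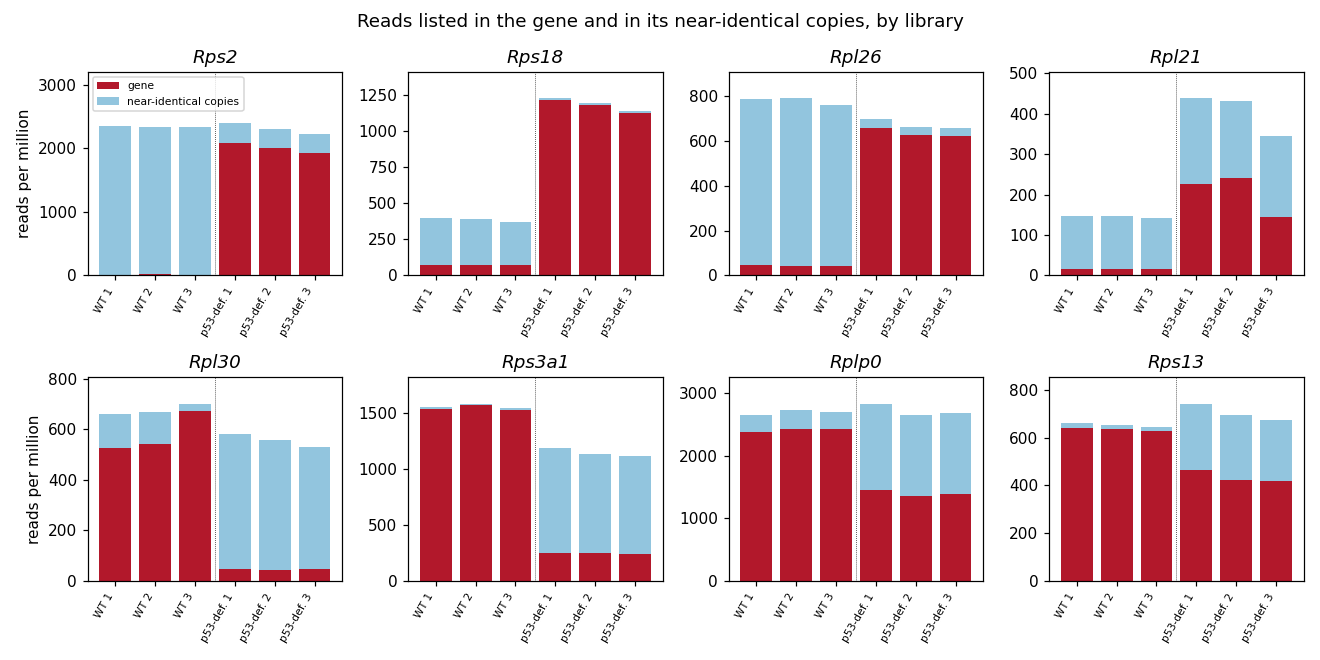
Reads (RPM) listed in the gene (red) and in all its near-identical copies (blue), stacked, for 8 genes in the 3 WT and 3 p53-deficient libraries. The red part changes between the groups in all 8, from 0.535% to 86.7% of the bar for Rps2 and from 99.0% to 21.6% for Rps3a1, while the bar heights of Rps2, Rplp0 and Rps13 did not pass the test.

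Smaller opposite changes of gene and copy were present in other families. The share of family reads in the gene moved by over 5 percentage points in 11 of the 83 genes: the 6 above that changed at least 2-fold, Rplp0, Rps13, and Rps7, Rpl11 and Rpl24. Rps7, an MDM2-binding protein of the small subunit, fell from 433, 416 and 426 FPKM to 302, 289 and 286 FPKM, while Gm6472, a transcribed processed pseudogene on the X chromosome, rose from 316, 301 and 309 FPKM to 520.2, 484 and 473 FPKM. The log2 fold change of Rps7 was -0.54 alone (limma adjusted p = 9.83e-06) and -0.22 summed (limma adjusted p = 0.000995). Rpl11 fell from 377, 384 and 369.95 FPKM to 297, 280.1 and 282 FPKM, and its copy Gm10036 rose from 9.27, 10.3 and 10.2 FPKM to 356, 339 and 339 FPKM. Here a log2 fold change of -0.40 (limma adjusted p = 4.28e-05) shrank to -0.09 on summing and still passed (limma adjusted p = 0.0297). Rpl24 was near the bottom of the range, at 1.90 ± 0.312 FPKM in WT against 2.87 ± 0.503 FPKM in p53-deficient libraries (SD, n = 3 per group). It was called higher alone (log2 fold change 0.42, limma adjusted p = 0.0205) but not summed (0.02, limma adjusted p = 0.873), and the call alone was lost without WT replicate 3 (limma adjusted p = 0.0599) or p53-deficient replicate 1 (0.0577) or 3 (0.0594).

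Summing changed the call of 9 genes in all. Rpl26 and Rps10 went from higher to lower. Rps2, Rpl24 and Rpl34 went from higher to not passed, Rplp0 and Rps13 from lower to not passed, and Rpl17 and Rps15 from not passed to lower. Rpl34, named here after its values were seen, is like Rps10 in that the gene holds few reads (8.31 ± 0.259 FPKM in WT) while its pseudogene Rpl34-ps1 was listed at 1771 ± 32.8 FPKM. In 38 genes at least 95% of the family's reads lay in the gene itself in every library. Of these, 2 were higher, 18 were lower and 18 did not pass on their own. On the log2(FPKM + 1) scale 0 changed at least 2-fold, but Rpl3l, which is among them, fell from a mean of 1.23 to 0.413 FPKM. The 13 genes without any expressed copy had 2 higher, 6 lower and 5 that did not pass. For all tested genes the shares were 35.3% higher and 31.3% lower.

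Gene and copy also differed in opposite directions among libraries of the same genotype. Rpl17 was listed at 516, 321 and 462 FPKM in WT and at 552, 129 and 379 FPKM in p53-deficient libraries. Replicate 2 was the lowest of its group in both genotypes, and the groups overlapped (log2 fold change -0.50, SE 0.519, limma adjusted p = 0.429). Rpl17-ps10 was listed at 262, 537 and 315 FPKM in WT and 262, 648 and 297 FPKM in p53-deficient libraries, highest where the gene was lowest. Gene and copies together gave 807, 818 and 792 RPM in WT and 780.5, 694 and 686 in p53-deficient libraries. In p53-deficient libraries the highest level of Rpl17 was 4.28 times the lowest, and that of the summed family 1.14 times. The sum was lower in every p53-deficient library than in every WT library, and passed with a log2 fold change of -0.16 (SE 0.0516, limma adjusted p = 0.0273).

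Rps27a encodes ubiquitin fused to a small subunit protein. It was listed at 366, 326 and 204 FPKM in WT and 388, 358 and 378 FPKM in p53-deficient libraries, so that WT replicate 3 stood below the other 5 libraries. The copy Gm8430 was highest in that library (31.7, 34.4 and 68.1 FPKM in WT). Summing did not bring WT replicate 3 level, since the highest WT sum was still 1.69 times the lowest. Rps27a did not pass alone (log2 fold change 0.37, limma adjusted p = 0.154) or summed (0.32, limma adjusted p = 0.156). Over all 83 genes, the highest library was over 1.5 times the lowest in 3 genes in WT and 3 in p53-deficient cells. After summing, 1 gene remained in WT, Rps27a, and 0 in p53-deficient cells.

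**Figure D4:**
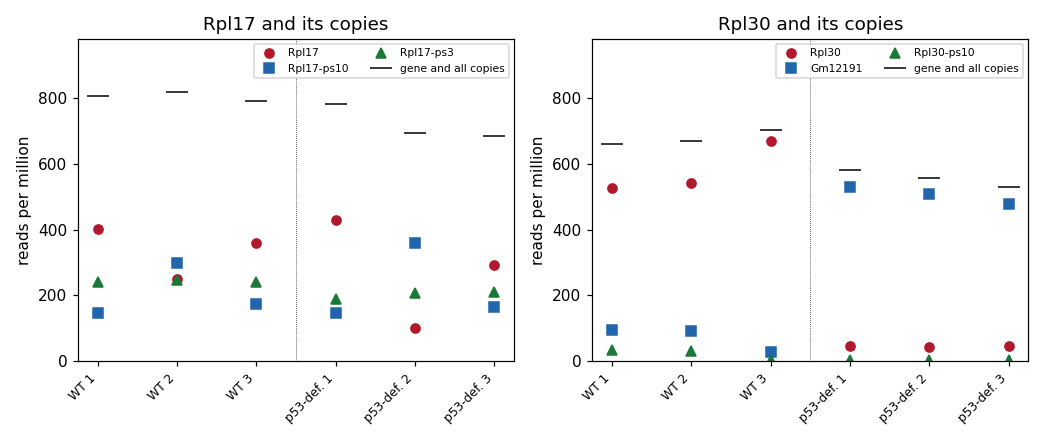
Reads (RPM) in each library for Rpl17 (left) and Rpl30 (right), their 2 most abundant copies, and gene with all copies (dash). In Rpl17 the gene and Rpl17-ps10 trade places within each genotype, and the dashes stay between 686 and 818; in Rpl30, WT replicate 3 is high in the gene and low in both copies.

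The 13 ribosomal proteins described to bind MDM2 were Rpl5, Rpl11, Rpl23, Rpl26, Rps27l, Rps7, Rps14, Rps3, Rps27a, Rps25, Rps26, Rps15 and Rps20. On their own 1 was higher (Rpl26) and 7 were lower, and summed with copies 0 were higher and 9 were lower, with a median log2 fold change of -0.16. Of all tested genes 31.3% were lower on their own and 31.6% in the summed fit. Of the 83 ribosomal protein genes, 45.8% were lower on their own and 48.2% summed. Rps27l, a paralog of Rps27 that is a known p53 target, had the largest fall of the 13, from 395, 389 and 381 FPKM to 245, 234 and 220.3 FPKM. No copy of Rps27l was found. The groups were well apart, and the log2 fold change was -0.73 (SE 0.0416, limma adjusted p = 1.12e-05). Its parent Rps27 was level, with 419 ± 20.3 FPKM in WT against 416 ± 27.3 FPKM in p53-deficient libraries (SD, n = 3 per group; log2 fold change -0.01, limma adjusted p = 0.889). The coding sequences of this pair are of equal length, 252 bases, and differ at 60 positions. The first 120 coding bases hold 28 of the differences, in capitals, for Rps27 (chr3:90212522-90213651, minus strand) and Rps27l (chr9:66946086-66949516, plus strand).
Rps27: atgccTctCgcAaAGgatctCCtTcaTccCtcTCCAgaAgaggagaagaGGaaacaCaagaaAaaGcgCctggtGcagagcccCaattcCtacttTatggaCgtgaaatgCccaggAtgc
Rps27l: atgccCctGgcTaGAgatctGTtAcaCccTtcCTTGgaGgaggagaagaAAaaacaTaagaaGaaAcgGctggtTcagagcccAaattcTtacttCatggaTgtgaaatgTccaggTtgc
Unlike the pairs of gene and pseudogene shown above, these sequences share no long identical run within the stretch shown.

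Among the other MDM2-binding proteins, Rpl5, which enters the large subunit with Rpl11, was lower in all p53-deficient libraries at 297, 288 and 281 FPKM against 318, 326 and 318 FPKM (log2 fold change -0.15, limma adjusted p = 0.00272). Of its exon length, 24.3% overlaps another expressed gene, and without strand those reads cannot be parted. Rpl23 was lower by a similar amount (-0.14, limma adjusted p = 0.00424). Rps3, at the mRNA entry of the small subunit, fell from 399 ± 3.79 to 324 ± 8.26 FPKM and Rps20 from 258 ± 5.76 to 210.1 ± 10.01 FPKM (SD, n = 3 per group), with log2 fold changes of -0.30 for both (limma adjusted p = 7.47e-05 and 0.000574). Rps3 had no expressed copy. Rps14, Rps25 and Rps26 did not pass, with log2 fold changes of -0.03, 0.01 and 0.08, and Rps15 missed the threshold at -0.12 (limma adjusted p = 0.0509). The sign of Rps14 and Rps15 turned under quantile normalization, to 0.09 for each, and that of Rps25 under median ratio scaling, to -0.09.

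Some ribosomal protein paralogs, though not all, are expressed in certain tissues in place of the common form. Rpl39l, a paralog of Rpl39 best known from testis, fell from 105, 106 and 102 FPKM to 76.5, 75.7 and 76.3 FPKM. The 3 p53-deficient libraries were within a narrow range below WT, and the log2 fold change was -0.44 (SE 0.022, limma adjusted p = 6.21e-06). Rpl39 itself, 84.97% identical in coding sequence, was at -0.17 (limma adjusted p = 0.0105). Rpl10l, an intronless paralog of the X-linked Rpl10 that takes its place in male germ cells, went the other way from its parent: it rose from 178, 183 and 176 FPKM to 233, 239.7 and 216 FPKM (log2 fold change 0.36, limma adjusted p = 0.000327). Rpl10 was at -0.12 (limma adjusted p = 0.0129), was at 0.02 under quantile normalization, and did not pass without WT replicate 1 (limma adjusted p = 0.0555). Rpl7l1 also rose, from 69.6 ± 1.24 to 85.7 ± 0.809 FPKM (0.30, limma adjusted p = 4.12e-05), where Rpl7 was at -0.16 (limma adjusted p = 0.0137, 0.0513 without WT replicate 1). Rpl22 and its paralog Rpl22l1 were both lower, at -0.23 and -0.32 (limma adjusted p = 0.00169 and 0.00384). The muscle paralog Rpl3l was the least abundant member, with 1.23 ± 0.12 FPKM in WT against 0.413 ± 0.0682 FPKM in p53-deficient libraries (-0.66, limma adjusted p = 0.000341), where Rpl3 was at -0.10 (0.0153, and 0.0547 and 0.0624 without WT replicate 1 or 2). Whether a paralog changed differently from its parent was not tested.

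Among other members with known roles, Rpl13a, a large subunit protein that can leave the ribosome as part of a translation inhibitor, fell from 36.0, 34.6 and 33.6 FPKM to 22.3, 22.7 and 21.9 FPKM. Its log2 fold change was -0.62 alone (SE 0.0319, limma adjusted p = 7.5e-06) and -0.61 summed. Rpsa, which doubles as a laminin receptor, was lower in every p53-deficient library (615, 553 and 591 FPKM against 682, 693 and 690.3 FPKM), with -0.23 (limma adjusted p = 0.00226). Rps6, the target of S6 kinase downstream of mTOR, was at 942 ± 7.06 FPKM in WT against 884 ± 24.7 FPKM in p53-deficient libraries (SD, n = 3 per group). Its log2 fold change of -0.09 passed (limma adjusted p = 0.0251), turned to 0.01 under quantile normalization, and did not pass without WT replicate 1, 2 or 3 or p53-deficient replicate 2 (limma adjusted p = 0.0786, 0.0951, 0.0586 and 0.0537). Rps4x on the X chromosome was at -0.13 (limma adjusted p = 0.0083), and at 0.03 under quantile normalization. Rpl29 and its copies did not pass (log2 fold change 0.43, limma adjusted p = 0.0824; summed 0.05, limma adjusted p = 0.462). The 40 members not taken up by the rule for named genes ranged from -0.39 to 0.31, with 1 higher (Rpl34), 12 lower and 27 that did not pass. Rpl23a shares 62.3% of its exon length with another expressed gene, Rpl31 25.3% and Rps25 24.8%.

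Start sites were compared for the motifs that ribosomal protein promoters are known for. RefSeq promoters (GRCm38.p6, 250 bases before to 50 after the start) were at hand for 63 of the 83 genes and for 27025 genes in all. The letters CTTTCC, as in a terminal oligopyrimidine tract, lay within 10 bases of the start on the gene's strand in 9 of the 63 genes (14.29%) and in 1.0% of all genes. The letters CTTTTC did so in 3 of the 63 (4.76%) and in 0.75% of all genes. CCGGAAG, read by ETS factors such as GABPA, was found before the start on either strand in 19 genes (30.16%) and in 7.83% of all genes. CACGTG, the E-box read by MYC, was found in 5 genes (7.94%) and in 6.86% of all genes, and TATAAA within 50 bases before the start in 1 gene (1.59%) and in 3.15%. These are matches of letters and no measured sites. CTTTCC and CTTTTC are fixed strings, so genes whose start has another run of pyrimidines were not counted.

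Genes of ribosome assembly, RNA polymerase I and mitochondrial ribosomes, taken from lists fixed by name, were mostly higher. Of 53 ribosome assembly factors 45 were higher and 4 lower, with a median log2 fold change of 0.33, where 35.3% of all tested genes were higher and 31.3% lower. Grwd1, a histone chaperone that also takes part in assembly of the large subunit, rose from 42.2 ± 0.731 to 81.8 ± 1.70 FPKM (log2 fold change 0.94), and Heatr1 and Nop16 rose by 0.77 and 0.76 (SD, n = 3 per group). The most abundant of the list, Npm1, was lower (-0.20, limma adjusted p = 0.00135). Of 15 genes of RNA polymerase I and its factors, which transcribe ribosomal RNA, 12 were higher and 1 lower (median 0.27), with Polr1b at 0.88, Taf1c at 0.80 and Polr1d at 0.78. Of 77 tested mitochondrial ribosomal protein genes 57 were higher and 7 lower (median 0.19), with Mrpl12 at 1.35. Of 39 translation factors 21 were higher and 9 lower (median 0.11). The largest called changes were rises of Eef1d (0.52), Eif6 (0.50) and Eif1ax (0.47), while Eef1a1, the most abundant, was lower (-0.24, limma adjusted p = 0.000328). Under median ratio scaling these counts became 42 and 5 for assembly, 11 and 1 for RNA polymerase I, 35 and 10 for mitochondrial ribosomal proteins, and 17 and 16 for translation factors, with 28.1% of all tested genes higher and 37.1% lower. The 20 genes around mTOR and LARP1 had 5 higher and 5 lower. The mTOR inhibitors Ddit4, Sesn2 and Deptor fell by 3.49, 2.34 and 1.34 on the log2 scale, and Eif4ebp1, a translation repressor that mTOR holds off, by 0.49. The other called genes of the list, named after their values were seen, were Rptor (0.96), Tsc2 (0.31), Mtor (0.28), Larp1 (0.18) and Eif4ebp2 (0.15), all higher, and Sesn1 (-0.28), and median ratio scaling left 4 higher and 5 lower. Rptor is a subunit of mTOR complex 1 and Tsc2 an inhibitor of it. Rack1, a protein of the small subunit whose name falls outside the naming rule, was lower (log2 fold change -0.16, limma adjusted p = 0.00558). Fau, the most abundant of the 4 listed genes outside that rule, did not pass (0.035, limma adjusted p = 0.426). The difference between these lists and the ribosomal proteins was not tested.

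**Figure D5:**
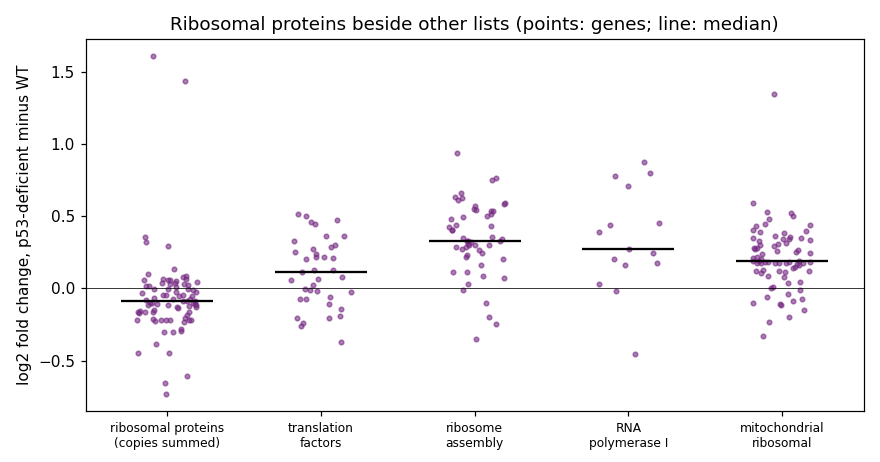
Log2 fold change (p53-deficient minus WT, log2(FPKM + 1) scale) of each gene in 5 lists, each point 1 gene and each line the median of the list. The ribosomal proteins with copies summed lie around a median of -0.09, with Rps18 and Rpl21 above 1.4, and the medians of the other lists are 0.11, 0.33, 0.27 and 0.19.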

How the data were processed

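RNA of 3 WT and 3 p53-deficient libraries was measured. The authors deposited 1 table of FPKM per gene and library, made on mm10, and the submitters' processing notes name HISAT2 2.0.5 and featureCounts 1.5.0-p3. Multiplied by gene length, 100% of the values above 0 were whole multiples of 1 read's worth, within 0.001 of the read count. Reads per gene were rebuilt from these multiples. For genes with many reads that tolerance is too wide for the check to fail, so it does not test them. 17065841, 19440659 and 20331905 reads were listed in WT and 21218976, 11536412 and 17568406 in p53-deficient libraries. The implied divisors, used as library totals, were 17268871, 19712463 and 20589340 in WT and 21038408, 11556595 and 17642518 in p53-deficient libraries. Nothing in the labels says that the kit marks strand.

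Values were taken as log2(FPKM + 1), a scale that understates changes of low genes, and genes under a mean FPKM of 0.5 were left out. The test was limma 3.58.1 under R 4.3.3 (two-sided, variance trend, no covariates) and called at a Benjamini-Hochberg adjusted p under 0.05 over 15144 genes. With 3 against 3, an exact permutation test cannot go below 0.1. Copies were sought with BLAST+ 2.17.0 in GENCODE mouse release 21, whose coordinates equal those of the table for 98.33% of the genes found there. A copy had at least 95% identity over at least 50% of the coding sequence and 60 bases, and the match covered at least 25% of the copy. Each copy was given to its best parent, and its rebuilt reads were added to those of the parent. On simulated data of this comparison with 14955 genes the fit found 32% of planted 1.25-fold changes, 74% at 1.5-fold and 84% at both 2-fold and 4-fold, with 6 false calls. Plots used matplotlib 3.10.9 (Python 3.11.15).

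The members and lists were chosen with earlier results of these data known. Values in every library were planned for the 8 largest rises and falls, members opposite to a pseudogene of their name, paralogs, MDM2-binding and stalk proteins, Rpsa, Rps6, and the most and least abundant member. From each other list up to 3 called genes and the most abundant one were to be named. For mitochondrial ribosomal proteins only Mrpl12 is given. The alternatives were another pseudocount (0.1), no filter or a mean FPKM of at least 5, median ratio scaling, quantile normalization, voom weights, array weights, no variance trend, a replicate block, protein-coding genes alone, a threshold of 0.01, summing with pseudogenes or copies, and each library left out. Summing combined with scaling, block or a left-out library was added after the data were seen.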

Additional observations from a re-analysis of the deposited data

How the results depend on the processing

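Each group had 3 libraries, a read may fit several near-identical genes, and copies under 95% identity were not added. Of 9 members called higher, quantile normalization gave 15, voom weights 14, summing with copies 4, and leaving out a library 8 to 15. Of 38 called lower, an adjusted p under 0.01 gave 25 and leaving out a library 27 to 46. Among the 13 members without an expressed copy 2 were higher (15.4%, against 10.8% of the 83) and 6 lower (46.2%, against 45.8%). Median ratio scaling gave 9 higher and 53 lower and moved the median log2 fold change from -0.09 to -0.19, where leaving out a library gave -0.12 to -0.08; it moved the median of all tested genes from 0.03 to -0.05 and their lower calls from 4733 to 5611. The 6 genes opposite to a pseudogene of their name became 10 without the filter and 5 to 7 with a library left out. With copies summed, the 4 higher became 11 under quantile normalization, 7 with the replicate block and 4 to 11 with a library left out, and the 40 lower became 28 to 48 with a library left out and 58 under median ratio scaling. The remaining alternatives gave counts within 1.5 times those reported.

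Copy summing, which by construction adds the reads of the copies, turned the sign of 8 of the 83 members: Rps2 (-0.021), Rpl26 (-0.21), Rps10 (-0.20), Rplp0 (0.014), Rps13 (0.10), Rpl34 (-0.08), and Rpl7a and Rpl35a, which passed in neither fit. With pseudogenes of the same name summed it turned for 5, Rps2 (-0.041), Rps10 (-0.20), Rps13 (0.10), Rpl34 and Rpl7a. Among the 43 genes named by the rule, under quantile normalization it turned, with a pass in either fit, for Rpl10 (0.019), Rps14 (0.092), Rps15 (0.088), Rps4x (0.030) and Rps6 (0.0083), and under median ratio scaling for Rps25 (-0.091); the cause was not tested.

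With the replicate number as a block, 10 members were higher, 39 lower and 6 opposite to a pseudogene. Deviations of libraries with the same number correlated at -0.03, 0.02 and -0.02 over 7752 genes, and no label says that a number marks a shared batch, so the numbers were not taken to pair the libraries.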
